A study of Mus musculus with 2 samples.

Results

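Transcripts of 9 genes of Sertoli cell identity and of the AMH and inhibin hormone system were followed across the cell classes of the mouse testis and between wild-type (WT) and Alkbh5-/- (KO) animals. The genes were listed by name and are 9 of the 36547 genes of the tables: the transcription factors Sox9, Wt1 and Gata4, the FSH receptor Fshr, the ligand Amh and its receptor Amhr2, and the inhibin and activin subunits Inha, Inhba and Inhbb. All 9 were listed in both libraries. ALKBH5 is an enzyme that removes the m6A mark from RNA, and the study asked how its loss alters the cells of the testis. Single-cell RNA was sequenced from testes of 12-week-old C57BL/6 mice, with 1 library per genotype, and the KO lacked the gene in every cell of the body. The mice came from crosses of heterozygous animals. The study speaks of a single mouse per genotype in one place and of several in another, so each library may pool animals.

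Sertoli cells line the seminiferous tubule, nurse the germ cells and answer to FSH from the pituitary. They are specified by factors such as SOX9, WT1 and GATA4. Before puberty they release anti-Müllerian hormone, which is low in the adult. They also make inhibin, a dimer of an alpha subunit with a beta A or beta B subunit that restrains FSH, whereas dimers of the beta subunits alone are activins. Leydig cells lie between the tubules and make testosterone.

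The WT library held 5756 cells with 80283221 UMIs, where a UMI marks a single captured RNA molecule, and the KO library held 7012 cells with 82056760 UMIs. The 2 libraries shared 45 cell barcodes. Alkbh5 itself, on chromosome 11, had 607 UMIs in WT and 5 in KO. Cells were grouped into 16 clusters and 9 classes without using any of the 9 genes, and classes were named from other markers. The cluster called Sertoli-like showed 19 of 20 Sertoli markers and was led by Cst9, Cst12 and Cldn11, and the cluster called Leydig-like showed 20 of 20 Leydig markers and was led by Cyp17a1. Sertoli-like cells numbered 46 in WT and 443 in KO, or 0.799% (95% interval 0.586 to 1.06) and 6.32% (5.76 to 6.91) of the cells. At least 10 of the 20 Sertoli markers were found in 26 of these WT cells and in 418 of these KO cells. Markers of elongating spermatids took 14.3% of the UMIs of the class in WT and 1.88% in KO. Levels and shares given for the class are those of all its cells. Leydig-like cells numbered 93 and 1169, and germ cells of 5 classes numbered 5593 and 5306. With 1 library per genotype no difference has a replicate check, no test was made, and every interval is a 95% interval for counting error only.

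Fshr, Amhr2 and Inhbb are shown by the DNA at their start sites, as the hormone receptors of the list and the beta B subunit. Windows of Inha and Inhba were also in the reference and were searched without being printed. RefSeq promoters (GRCm38.p6, 250 bases before to 50 after the start) matched 5 of the 9 genes, which were Fshr, Amhr2, Inha, Inhba and Inhbb. They were searched on both strands for short words that such factors are known to bind. The SOX word was AACAAT and the CREB word was TGACGT. The NR5A1 words were AGGTCA and, as a variant, AGGCCA. The GATA words were AGATAA and its variant AGATAG, together with the form TGATAA and its variant TGATAG. Of all 32851 promoters of this length, 10.7% held the SOX word, 34.4% an NR5A1 word, 29.8% a GATA word and 7.51% the CREB word. Capitals mark a match, and a word on the minus strand appears as its reverse complement. The minus-strand Fshr window is chr17:89200626-89200925, the plus-strand Amhr2 window is chr15:102445117-102445416 and the minus-strand Inhbb window is chr1:119422199-119422498.
Fshr: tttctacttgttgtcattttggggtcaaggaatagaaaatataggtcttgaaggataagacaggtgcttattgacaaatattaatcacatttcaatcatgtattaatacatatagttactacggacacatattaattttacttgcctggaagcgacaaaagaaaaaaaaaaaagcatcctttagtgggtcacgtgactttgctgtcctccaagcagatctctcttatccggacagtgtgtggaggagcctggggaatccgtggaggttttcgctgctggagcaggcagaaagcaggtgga
Amhr2: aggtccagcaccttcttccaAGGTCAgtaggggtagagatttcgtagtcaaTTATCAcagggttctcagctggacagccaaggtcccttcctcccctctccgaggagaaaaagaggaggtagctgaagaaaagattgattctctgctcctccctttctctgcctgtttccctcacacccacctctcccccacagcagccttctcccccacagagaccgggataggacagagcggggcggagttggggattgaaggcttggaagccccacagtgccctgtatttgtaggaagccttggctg
Inhbb: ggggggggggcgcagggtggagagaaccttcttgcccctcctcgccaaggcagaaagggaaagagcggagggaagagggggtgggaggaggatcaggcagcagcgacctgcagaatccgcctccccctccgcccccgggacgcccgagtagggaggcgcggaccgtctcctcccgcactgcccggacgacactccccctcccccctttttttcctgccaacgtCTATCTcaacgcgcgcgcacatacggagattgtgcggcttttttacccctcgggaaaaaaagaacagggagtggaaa
The Amhr2 window held AGGTCA 230 bases before the start and TGATAA on the minus strand 199 bases before it. The Inhbb window held AGATAG on the minus strand 27 bases before the start. The Fshr and Inhba windows held none of these letters. The Inha window held AGGTCA 69 bases before its RefSeq start, but that window, chr1:75507359-75507658, lies within the span that GENCODE vM21 gives to the gene, from 75507077, so it is not printed. A match describes letters and says nothing of binding.

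The 9 genes were not spread evenly over the testis. In the main grouping 8 of the 9 had their highest level in Sertoli-like cells of at least 1 library, and Inhba was the exception. Gata4, Amhr2 and Inha were also plain in Leydig-like cells, and Wt1 was also found in endothelial-like cells of KO. Levels are UMIs of the gene per 1000000 UMIs of the class (CPM), so they compare a gene between classes and not different genes with each other.

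**Figure D1:**
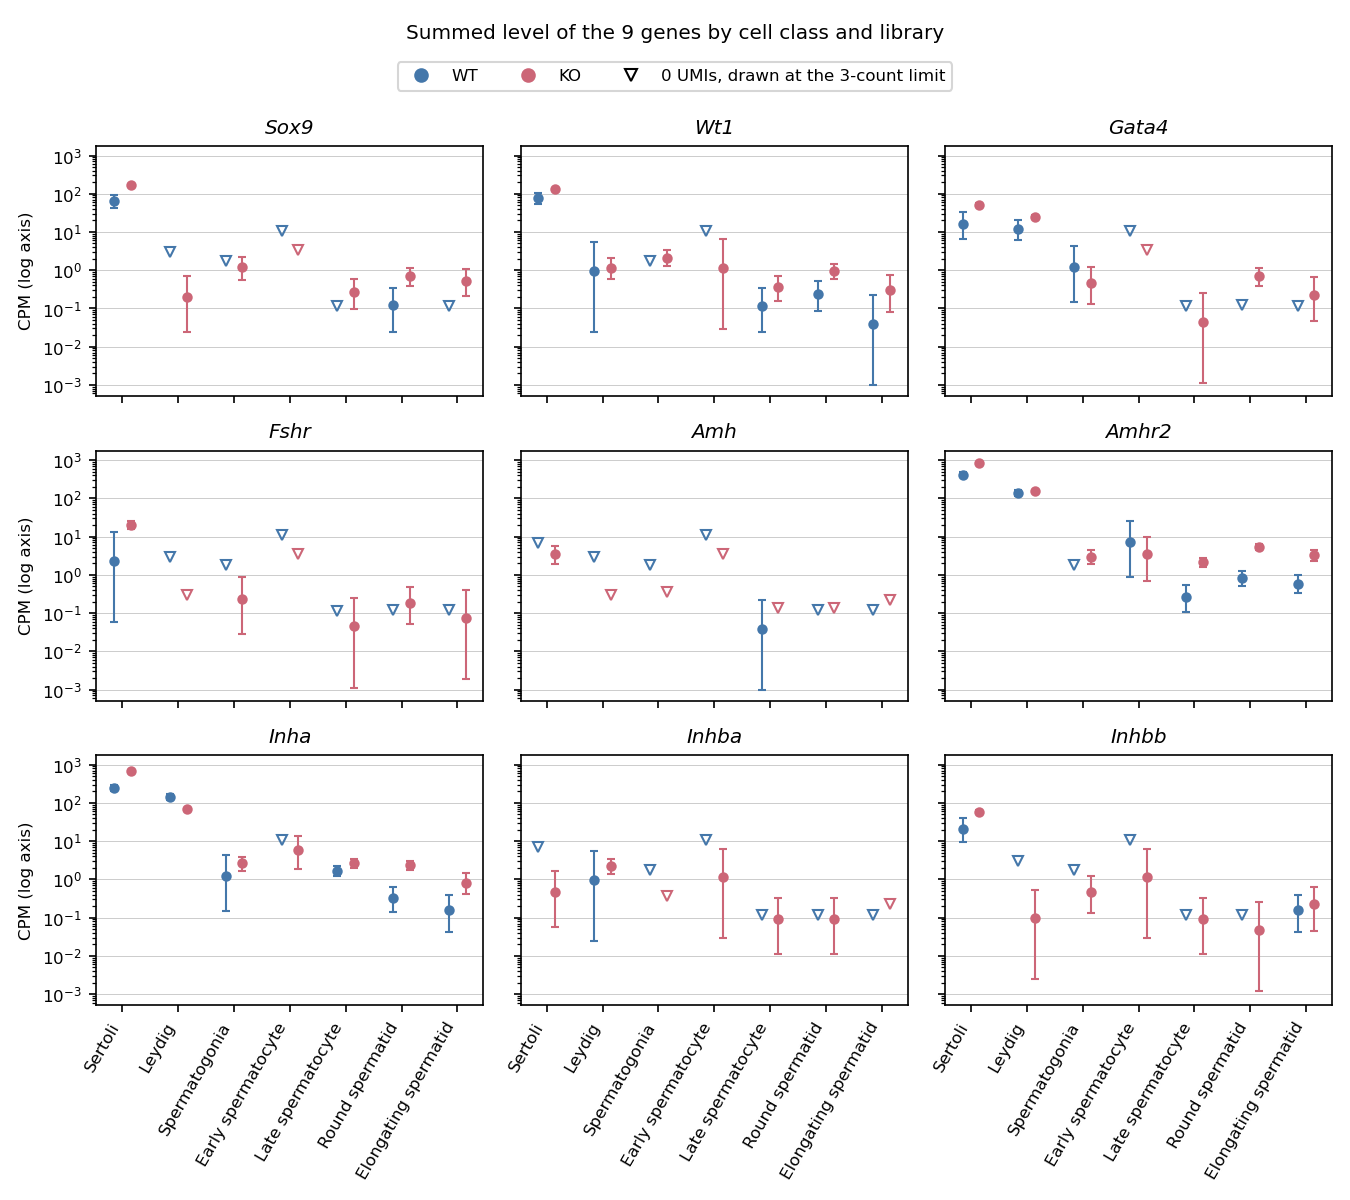
Level of each gene in CPM on a log axis, by cell class, in the WT and the KO library. Bars are exact 95% Poisson intervals, open triangles mark classes with 0 UMIs at the limit of 3 counts, and Sertoli-like cells hold the highest level of each gene but Inhba (and Amh in WT).

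Sox9, on chromosome 11 (112782224 to 112787760, GRCm38), is the factor that directs the male gonad to form Sertoli cells. It had 64.6 CPM (42.9 to 93.3) in WT and 168 CPM (156 to 181) in KO Sertoli-like cells, from 28 and 734 UMIs. Leydig-like cells held 0 UMIs in WT, which allows up to 3 counts, and 2 in KO. The Sertoli-like level was thus at least 4.45 on the log2 scale above the Leydig-like level in WT and 9.76 (7.90 to 12.80) above it in KO. The gene had a UMI in 28.3% of WT and 68.8% of KO Sertoli-like cells, against 0 and 0.535% of elongating spermatids, which should lack it. The Sertoli-like cells had a median depth of 8079.5 and 9084 UMIs and the spermatids 8926 and 8384. With each cell thinned to 5000 UMIs, which left out 11 KO Sertoli-like and 65 KO spermatid cells, the Sertoli-like shares were 21.7% and 53.0%.

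Wt1, on chromosome 2, encodes a zinc finger factor that keeps the Sertoli fate. It had 33 UMIs (76.1 CPM) in WT and 568 UMIs (130 CPM) in KO Sertoli-like cells, and 30.4% and 65.2% of the cells had a UMI. Leydig-like cells had 1 and 12 UMIs, a level 6.27 (3.70 to 11.62) and 6.80 (5.98 to 7.76) lower on the log2 scale. Wt1 also reached a comparable level in endothelial-like KO cells, with 17 UMIs in 11 of 24 cells, or 108 CPM (62.7 to 172). In those cells Sox9, Gata4, Fshr and Amhr2 had 0 UMIs and Inha had 1, and the middle Sertoli marker stood at 0.822% of its Sertoli-like level. The WT library held only 1 endothelial-like cell, so the genotypes cannot be compared there.

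Gata4, on chromosome 14, encodes a zinc finger factor of gonadal somatic cells. In WT it rested on few UMIs, with 7 (16.1 CPM, 6.49 to 33.3) in Sertoli-like and 12 (11.8 CPM) in Leydig-like cells. The log2 difference there was 0.45 (-1.13 to 1.91). In KO it had 223 UMIs (51.1 CPM) and 253 UMIs (24.6 CPM), a log2 difference of 1.05 (0.79 to 1.32) in favour of Sertoli-like cells. The 2 classes therefore separated beyond counting error in KO and not in WT, where the interval includes the KO difference.

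Fshr, on chromosome 17, is the receptor through which FSH reaches the Sertoli cell. A single UMI was found in the WT library, in a Sertoli-like cell that also held Sox9, Wt1, Gata4, Amhr2, Inha and Inhbb. In KO there were 88 UMIs in 71 Sertoli-like cells (20.2 CPM), 0 in Leydig-like cells and 8 in germ cells. Sertoli-like cells held 91.7% of the KO UMIs of the gene, and their level was at least 6.11 on the log2 scale above that of Leydig-like cells. Of the 71 KO cells with Fshr, 59 had Sox9 (83.1%, against 66.1% of the cells without Fshr) and all 71 had Amhr2 and Inha. In the cells without Fshr the shares were 93.5% for Amhr2 and 90.6% for Inha. Wt1 went the other way, with 63.4% of the cells with Fshr against 65.6% of those without. Gata4 was at 42.3% against 35.8% and Inhbb at 52.1% against 37.9%. The cells with Fshr were also deeper, with a median of 9832 UMIs against 8921.5.

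Amh, on chromosome 10, encodes anti-Müllerian hormone, and Amhr2, on chromosome 15, its specific receptor. Amh was nearly silent. The WT library held 1 UMI, in a late spermatocyte, and the KO library 15 UMIs, all in 14 Sertoli-like cells (3.44 CPM). Those 14 cells all had Amhr2 and Inha, 11 had Sox9 (78.6%) and 11 had Wt1 (78.6%). In the KO Sertoli-like cells without Amh the shares were 94.4% for Amhr2, 91.8% for Inha, 68.5% for Sox9 and 64.8% for Wt1. The 46 WT Sertoli-like cells had 0 UMIs, which allows up to 6.92 CPM, above the KO level, so no direction can be given for the ligand. Elongating spermatids had 0 UMIs of Amh in either library.

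The receptor was plain in both somatic classes. Amhr2 had 181 UMIs (417 CPM) in WT and 3777 UMIs (865 CPM) in KO Sertoli-like cells, and 142 UMIs (140 CPM) and 1646 UMIs (160 CPM) in Leydig-like cells. It was found in 60.9% and 94.6% of Sertoli-like cells and in 58.1% and 64.2% of Leydig-like cells, against 0.499% and 3.13% of elongating spermatids. After thinning the Leydig-like shares were 43.0% and 48.4% and the spermatid shares 0.208% and 1.29%. The Sertoli-like level was higher than the Leydig-like level by 1.58 (1.26 to 1.91) on the log2 scale in WT.

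Inha, on chromosome 1, encodes the alpha subunit that makes a dimer an inhibin. It had 108 UMIs (249 CPM) in WT and 2915 UMIs (668 CPM) in KO Sertoli-like cells, and 146 UMIs (143 CPM) and 696 UMIs (67.7 CPM) in Leydig-like cells. The gap between the classes was 0.80 on the log2 scale in WT and 3.30 in KO. The WT gap depends on the cells taken. In the 26 WT Sertoli-like cells with at least 10 Sertoli markers Inha was at 389 CPM, and in the 418 such KO cells at 693 CPM. Inhbb, the beta B subunit, kept to Sertoli-like cells, with 9 UMIs (20.8 CPM) in WT and 250 UMIs (57.3 CPM) in KO, against 0 and 1 UMI in Leydig-like cells. Inhba, the beta A subunit on chromosome 13, had 1 UMI in the whole WT library and 30 in the KO library. Of those 30, 23 were in Leydig-like and 2 in Sertoli-like cells, and the KO Sertoli-like level was below the Leydig-like level by 2.29 on the log2 scale (-5.42 to -0.27). When clusters were cut more finely, a cluster of 8 WT and 103 KO cells showed markers of stromal fibroblasts, and the highest level of Inhba was then there.

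Across 17 pairs of class and library, the level of each gene on the log2(CPM + 1) scale was set beside that of every other gene with enough UMIs. The points share libraries and depth, and for most of the 9 genes the 2 Sertoli-like points carry much of the pattern, so the values are a description. Amh had 0 UMIs in the WT Sertoli-like point, and Inhba was higher in the Leydig-like than in the Sertoli-like points. Sox9 was most like Gpr55 (Pearson r = 0.997), Sowahd and Gja6, and Inhbb was most like Helt (r = 0.997), Dmrta1 and Lpar3. Fshr was most like Kndc1 (r = 0.995), Capn6 and Bbox1. Wt1 followed Rasl10a (r = 0.983), Slc52a3 and Des, and Gata4 followed Gm47547 (r = 0.981), Pcyt1b and Pomgnt2. Amhr2 was most like Gm37350 (r = 0.976), Akr1b8 and Sept6, and Inha was most like Etnk2 (r = 0.970), Gstm6 and Pcyt1b. Amh, from 16 UMIs, was most like Aqp5 (r = 0.933), Vdr and Kndc1. Inhba, from 31, was most like Pcbd1 (r = 0.948), Orm1 and Slc47a1.

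The comparison of KO with WT within Sertoli-like cells asked whether the genes differed once the number of these cells was set aside. Of the 9 genes, 8 had at least 10 UMIs over both libraries. Of these, 6 were at least 2-fold higher in KO and 0 were at least 2-fold lower, while 31.0% of the 13432 genes tested were at least 2-fold higher and 18.1% at least 2-fold lower. The median log2 ratio was 1.40 for the 8 genes, with Amh at its limit (1.42 for the 7 genes with UMIs in both libraries), and 0.41 for all genes. Those 7 genes each had at least 50 UMIs over both libraries. Among all 8306 genes with that many UMIs the median was 0.84, with 42.4% at least 2-fold higher and 13.5% lower. The log2 ratio of KO to WT was 1.38 (0.84 to 1.98) for Sox9. It was 1.66 (0.60 to 2.99) for Gata4 and 0.77 (0.27 to 1.33) for Wt1, which stayed under 2-fold. Amhr2 had 1.05 (0.84 to 1.28), a ratio close to the threshold. Among the subunits, Inha had 1.42 (1.15 to 1.71) and Inhbb 1.46 (0.52 to 2.61). The Inhbb call rested on 9 WT UMIs. When the 9 genes were kept among the clustering features, the class held 13 WT UMIs of Inhbb and its ratio was 0.93, under 2-fold. For Fshr the ratio was 3.13, with an interval from 0.61 to 8.45 because WT held 1 UMI.

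The other markers of these cells moved in the same direction. Of the 20 Sertoli markers outside the list, 14 were at least 2-fold higher in KO and 0 lower, with a median log2 ratio of 1.34. Their summed level was 16792 CPM in WT and 37384 CPM in KO, a log2 ratio of 1.15. Markers of elongating spermatids, 18 of 18 with UMIs in each library, took 14.3% of the UMIs of WT Sertoli-like cells and 1.88% of those in KO. The median WT cell of the class showed 10 of the 20 Sertoli markers and the median KO cell 15. Sertoli markers took 0.696% of the UMIs of the median WT cell and 3.89% of those of the median KO cell. In the median Leydig-like cell they took 0.646% in WT and 0.649% in KO. By this share the median WT Sertoli-like cell was thus close to a Leydig-like cell. The markers of elongating spermatids moved with the genotype, and their part in each ratio was not tested. The ratios were therefore also given on 2 other scales.

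Against the summed UMIs of the 20 Sertoli markers, 1 of the 8 genes, Fshr, was at least 2-fold higher in KO and 0 were lower, while 4.89% of all genes were at least 2-fold higher and 35.3% lower. Sox9 was at 3.85 UMIs per 1000 marker UMIs in WT and 4.50 in KO, a log2 ratio of 0.23 (-0.32 to 0.83). Amhr2 was at 24.9 and 23.1, a log2 ratio of -0.10 (-0.32 to 0.12), so its direction turned. Inha was at 14.8 and 17.9, with 0.27 (-0.01 to 0.56), and Inhbb had 0.31 (-0.64 to 1.46). Gata4 had 0.51 (-0.56 to 1.84) and Wt1 -0.38 (-0.89 to 0.17). On this scale the interval of each of the 7 genes with UMIs in both libraries included 0.

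A further set of 26 WT and 418 KO cells showed at least 10 of the 20 markers, a choice made after the data had been seen. Those 26 WT cells held 27 of the 28 Sox9 UMIs, 30 of the 33 Wt1 UMIs, 172 of the 181 Amhr2 UMIs and 99 of the 108 Inha UMIs of the class. In them the log2 ratio of KO to WT was 0.70 (0.15 to 1.31) for Sox9, 0.41 (0.19 to 0.64) for Amhr2 and 0.83 (0.54 to 1.14) for Inha. Gata4, with 1.17 (0.02 to 2.63), and Fshr, with 2.42 (-0.10 to 7.74), stayed at least 2-fold higher, and Wt1 had 0.19 (-0.34 to 0.78). The elongating spermatid markers still took 7.87% of the UMIs in WT and 1.59% in KO. The median of all genes was 0.003 in these cells, where 15.7% of 12962 genes were at least 2-fold higher and 16.3% lower.

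**Figure D2:**
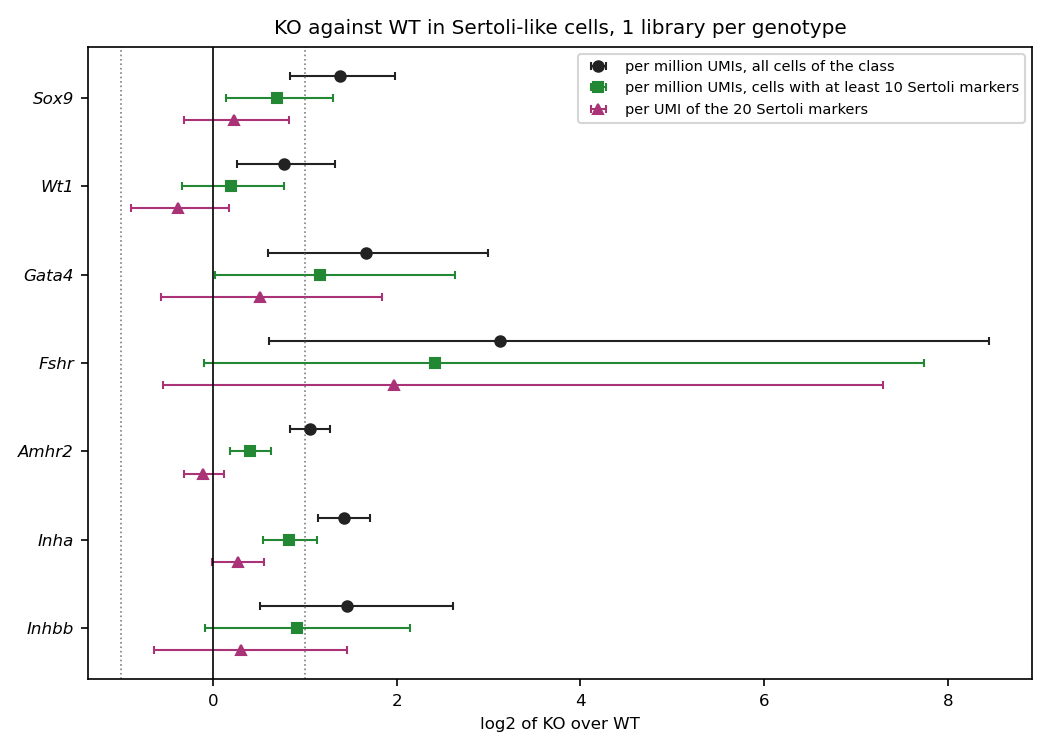
Log2 ratio of KO to WT in Sertoli-like cells for the 7 genes with UMIs in both libraries, on 3 scales, with exact 95% intervals for counting error and dotted lines at 2-fold. Ratios are highest per 1000000 UMIs of all cells (black) and lowest per UMI of the 20 Sertoli markers (purple), where every interval includes 0.

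The number of the 9 genes seen in a cell followed the same split. A median of 2 genes was found in WT and 4 in KO Sertoli-like cells, and at least 4 genes were found in 8 of 46 WT cells (17.4%) and 327 of 443 KO cells (73.8%). At 5000 UMIs per cell the shares with at least 4 genes were 10.9% and 50.7%, and 34.8% of WT and 3.24% of KO cells showed none. Leydig-like cells showed a median of 1 gene in either library. None of the genes was found in 99.3% of WT and 94.7% of KO elongating spermatids before thinning.

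**Figure D3:**
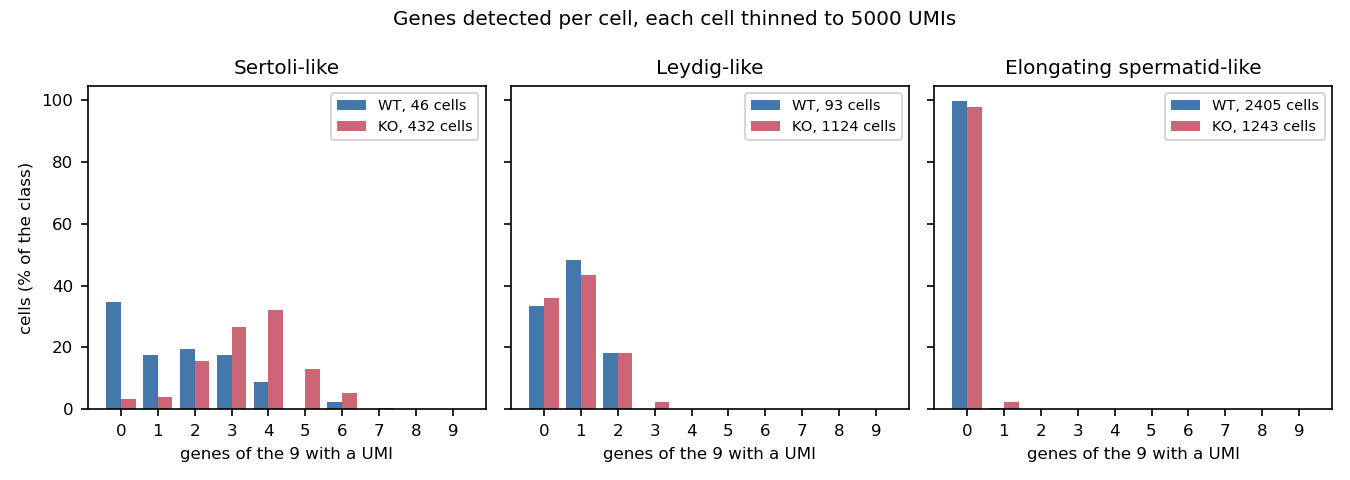
Share of cells (bars, % of the class) by how many of the 9 genes had a UMI, after thinning each cell to 5000 UMIs, in Sertoli-like, Leydig-like and elongating spermatid-like cells of WT and KO. WT Sertoli-like cells are most often at 0 and KO Sertoli-like cells at 4, while the Leydig-like distributions of the libraries overlap closely. Thinning matches total UMIs and not the share of spermatid or Sertoli marker UMIs.

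In Leydig-like cells the genes did not move together. Of the 5 genes with at least 10 UMIs, 2 were at least 2-fold higher in KO (Gata4 and Inhba) and 1 at least 2-fold lower (Inha), beside 7.32% of 15328 genes higher and 15.6% lower. The median log2 ratio was 0.25 for the 5 genes and -0.14 for all genes. Inha had 143 CPM (121 to 169) in WT and 67.7 CPM (62.8 to 72.9) in KO, a log2 ratio of -1.08 (-1.34 to -0.82). It was found in 51.6% of WT and 34.2% of KO cells (35.5% and 25.4% after thinning), against 0.0416% and 0.402% of thinned elongating spermatids.

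A single WT cell carried 18 of the 146 Inha UMIs. Without it WT stood at 127 CPM and the log2 ratio was -0.91 (-1.18 to -0.63), no longer past 2-fold. That check was added after the data had been seen. At least 3 Inha UMIs were found in 18 of 93 WT cells (19.4%) and in 73 of 1169 KO cells (6.24%). In the 88 WT and 1012 KO cells of the class without the Sertoli marker Cst9, Inha was at 145 and 66.7 CPM.

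Amhr2 had a log2 ratio of 0.20 (-0.05 to 0.46) in Leydig-like cells, an interval that reaches no 2-fold difference in either direction. Gata4 had 1.06 (0.23 to 2.03), from 12 and 253 UMIs. It fell just under 2-fold, at 0.99, when the stromal fibroblast-like cells were clustered apart. Inhba, with 1 and 23 UMIs, had 1.19 (-1.44 to 6.55). Wt1, with 1 and 12 UMIs, had 0.25. Against the summed UMIs of the 20 Leydig markers the ratio was -1.42 (-1.68 to -1.15) for Inha, -0.14 (-0.39 to 0.12) for Amhr2 and 0.73 (-0.10 to 1.70) for Gata4. On that scale 0 of the 5 genes were at least 2-fold higher and 1 lower, with 4.36% and 23.4% of all genes. Sertoli markers took 0.593% of the UMIs of Leydig-like cells in WT and 0.619% in KO, and markers of elongating spermatids 1.49% and 1.16%. Markers of peritubular myoid cells took 0.0163% (5 of 8 with UMIs, Myh11, Tagln and Cnn1 at 0) and 0.0757% (8 of 8), and those of round spermatids 0.130% and 0.0506%, with 19 of 19 in each. Their part in the ratios was not tested.

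**Figure D4:**
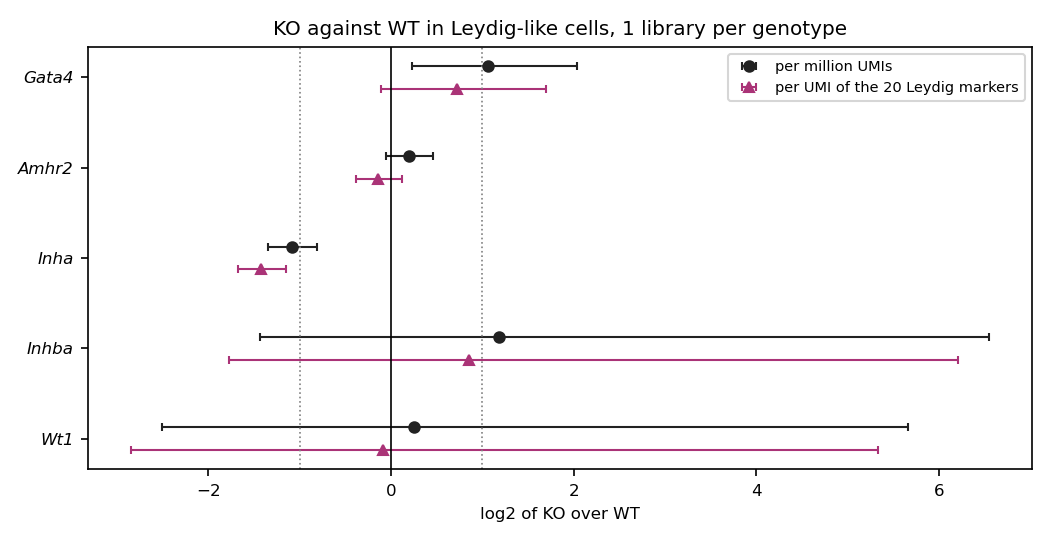
Log2 ratio of KO to WT in Leydig-like cells for the 5 genes with at least 10 UMIs, per 1000000 UMIs (black) and per UMI of the 20 Leydig markers (purple), with exact 95% intervals for counting error and dotted lines at 2-fold. Inha lies below 0 on either scale, Amhr2 lies near 0, and Inhba and Wt1 have wide intervals from 1 WT UMI each.

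Free RNA can enter any barcode, so levels outside Sertoli-like cells were set beside those of the Sertoli markers. In Leydig-like cells the middle Sertoli marker stood at 1.12% (WT) and 2.19% (KO) of its Sertoli-like level, and Cst9 at 0.216% and 0.553%. Single Sertoli markers ran from 0 to 384% in WT and from 0.251% to 90.0% in KO. Gata4 stood at 73.1% and 48.2%, Amhr2 at 33.4% and 18.5% and Inha at 57.6% and 10.1%, all above the middle marker but within the range of single markers. Wt1 stood at 1.29% and 0.897%, and in KO Sox9 was at 0.116% and Inhbb at 0.170%, which is close to or below the middle marker. No expression of Sox9, Wt1 or Inhbb in Leydig-like cells is read from these values.

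In germ cells the genes were rare. Over the pooled classes, Amhr2 had 45 UMIs in WT (0.573 CPM) and 234 in KO (3.52 CPM), Inha 57 and 148, Wt1 10 and 52 and Sox9 3 and 38. Gata4 had 2 and 23 and Inhbb 4 and 11, with all 4 WT UMIs of Inhbb in 1 elongating spermatid. All 6 genes with at least 10 UMIs were at least 2-fold higher in KO, where 27.6% of 25248 genes were, against 2.36% lower, and the medians were 2.62 and 0.35 on the log2 scale. Median Sertoli markers in germ cell classes stood at 0 to 0.211% of their Sertoli-like level in WT and 0.211% to 0.906% in KO, and the Sertoli-like class held 0.540% of the UMIs of the WT library and 5.32% of those of the KO library. Where they had UMIs, the 6 genes in late spermatocytes, round spermatids and elongating spermatids of KO lay between 0.0806% and 1.36% of the Sertoli-like level. In KO spermatogonia Wt1 was at 1.65% from 18 UMIs, above the middle marker at 0.532%, and in KO early spermatocytes Inhbb was at 1.99% from 1 UMI. Single Sertoli markers ran from 0.154% to 12.3% in the former class and from 0 to 8.43% in the latter. The middle Sertoli marker itself stood higher in KO than in WT in each germ cell class. The part of free RNA in these values was not tested.

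Inha in WT late spermatocytes stood above the middle Sertoli marker but within the range of single markers. It had 43 UMIs in 37 of 1544 cells (1.65 CPM, 1.20 to 2.22), and 8 UMIs in 8 of 1421 round spermatids (0.319 CPM, 0.138 to 0.628), at median depths of 13787.5 and 13881 UMIs. The late spermatocyte level was 0.663% of the Sertoli-like level, where the middle Sertoli marker was at 0.140% and Cst9 at 0.0879%. Single Sertoli markers ran from 0 to 4.19% in these cells. The UMIs were spread over the 3 clusters of the class, with 16, 19 and 8. In KO the late spermatocytes had 59 UMIs (2.67 CPM) and the round spermatids 51 (2.35 CPM), 0.400% and 0.353% of the Sertoli-like level, beside 0.333% and 0.543% for the middle marker.

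**Figure D5:**
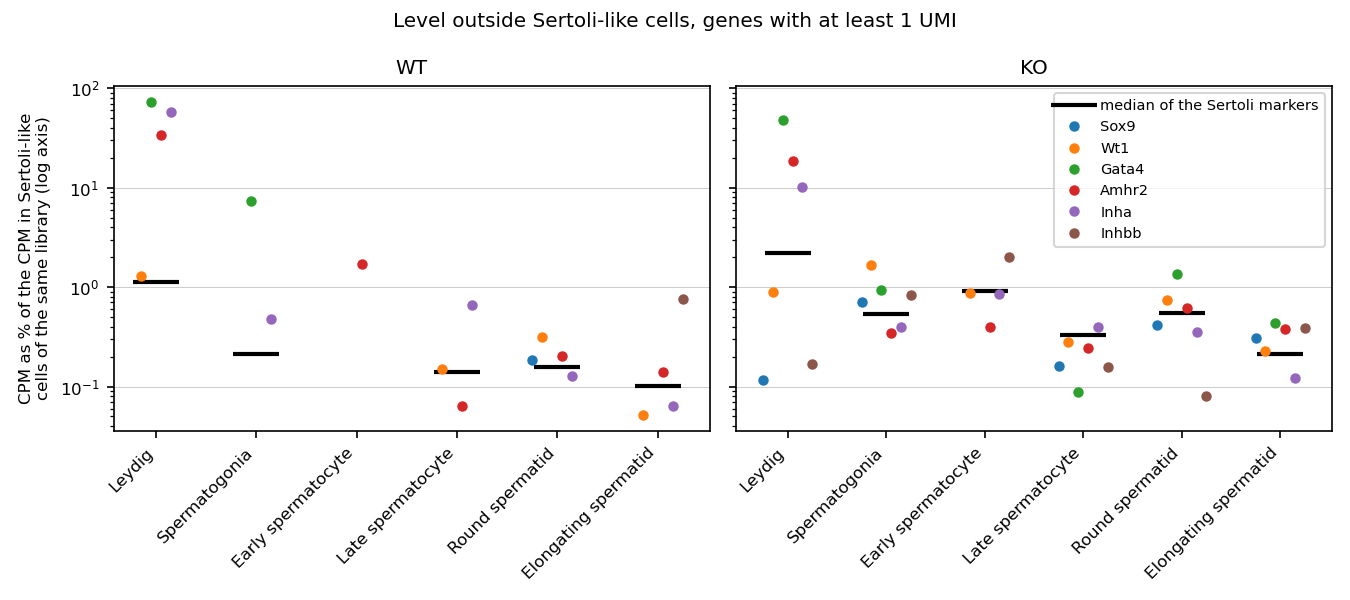
Level of 6 genes in Leydig-like and germ cell classes as a percentage of the level in Sertoli-like cells of the same library (points, log axis), with the median of the Sertoli markers (bars, at 0 and not drawn for WT early spermatocytes). Gata4, Amhr2 and Inha stand above the bar in Leydig-like cells, and most germ cell points lie close to it.

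Over whole libraries all 9 genes were at least 2-fold higher in KO, with 33.6% of 26474 genes higher and 3.40% lower. The log2 ratios ran from 3.56 (3.39 to 3.73) for Inha to 6.55 (4.04 to 11.87) for Fshr, and their median was 4.30, where that of all genes was 0.39. Sox9 was at 0.386 CPM in WT and 9.43 CPM in KO, and Amhr2 at 4.58 and 69.0 CPM. In bulk values of this kind, more cells of a type and more RNA per cell cannot be told apart. Sertoli-like cells held 94.8% of the KO UMIs of Sox9, 95.4% of Inhbb, 87.4% of Wt1 and 77.5% of Inha, but 66.7% of Amhr2 and 44.7% of Gata4.

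Other genes of the same pathways were read from 3 lists. Over Sertoli-like cells, the receptors, ligand traps and SMAD proteins of the AMH, activin and inhibin pathway had 8 of 18 tested genes at least 2-fold higher in KO and 0 lower, with a median log2 ratio of 0.84. The highest ratios were those of the SMAD proteins Smad2 (2.78) and Smad3 (2.60), the decoy receptor Bambi (2.71) and the type I receptor Acvr1 (1.76, with an interval that included 0), each from 1 WT UMI. Bmpr2 had 7 and 164 UMIs and a ratio of 1.22 (0.14 to 2.56), and Bmpr1a had 6 and 134 UMIs and 1.15, with an interval that included 0. Gonadal transcription factors and signals had 8 of 14 higher and 0 lower, with a median of 1.06. Among them were the nuclear receptor Nr0b1 (2.13), Gata1 (1.91) and Sox8 (1.71), the close relative of Sox9. Cited2, the list's gene with the highest level, was at 385 CPM in WT and 350 CPM in KO, a ratio of -0.14. Genes of FSH signalling and response had 10 of 19 higher and 2 lower, with a median of 1.00.

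In that last list the carrier protein Shbg had 9 and 677 UMIs, a log2 ratio of 2.90, and the homeobox gene Rhox5 had 47 and 1567, a ratio of 1.73. Prkar2b, a regulatory subunit of protein kinase A, had 2.76 from 1 WT UMI, and Trf, which carries iron, at least 1.87 from 0 WT UMIs. Prkar2a, another such subunit, was lower by 1.75 on the log2 scale (-1.75), with 63 and 189 UMIs, and the phosphodiesterase Pde4a had -1.01 (-2.83 to 1.42) from 3 and 15. Of the 3 lists, 5 entries are also among the 20 Sertoli markers. These counts stand beside the 31.0% and 18.1% of all genes given above and carry the same difference in spermatid and Sertoli marker content. Over the 3 lists together, 26 of 51 tested genes were higher and 2 lower. The counts were 12 higher and 4 lower with totals taken without germ cell genes, where 13.9% of all genes were higher and 24.6% lower. Against the summed Sertoli markers they were 6 higher and 11 lower, where 4.89% of all genes were higher and 35.3% lower. The balance of the listed genes turned against the markers, and that of all genes turned on either scale.

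In Leydig-like cells, where 7.32% of all genes were higher and 15.6% lower, the pathway list had 3 of 19 genes higher (Smad1 3.50, Acvr1c 2.47 and Acvr1 1.01) and 1 lower (Smad6 -2.01), with a median of -0.01. The gonadal list had 2 of 13 higher (Nr0b1 2.59 and Gata1 1.66) and 0 lower. The FSH list had 2 of 17 higher (Pde4d 2.12 and Creb1 1.23) and 3 lower (Gnas -1.50, Prkar2b -1.17 and Pde4a -1.01). Smad1, Acvr1c, Nr0b1 and Pde4d rested on 1 WT UMI each, and the intervals of Acvr1c, Acvr1, Smad6, Gata1 and Pde4d included 0. Tgfbr3, the co-receptor betaglycan that helps inhibin bind, had 58 UMIs (57.0 CPM) in WT and 911 (88.6 CPM) in KO Leydig-like cells, a ratio of 0.64. Nr5a1, the nuclear receptor that drives steroid genes, was at 69.8 and 89.0 CPM there, a ratio of 0.35 (0.002 to 0.72).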

How the data were processed

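Testis cells of 1 WT and 1 KO library were measured with the GEXSCOPE kit. Each deposited value is a UMI count per gene and barcode, without normalization. Per the labels the authors used fastp, STAR 2.5.3a, featureCounts 1.6.2 and Seurat. Their methods name a human genome build, whereas the gene symbols are murine.

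Cells with over 500 genes (all of them) were integrated in Seurat 5.3.0 (2000 features, 20 anchor dimensions, 30 components, resolution 0.3), with the 9 genes kept out of features and markers. A class name needed 3 detected markers and rests on rebuilt clusters, so it may differ from the study's. Scrublet in scanpy 1.11.5 marked 244 WT and 345 KO doublets, which were kept.

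Counts were summed per class and library and given as CPM with exact Poisson intervals. Shares have Clopper-Pearson intervals, and log2 ratios have the interval that is exact given the total of both sums, all at 95% (scipy 1.17.1). A sum of 0 was taken at 3 counts. Past 2-fold means a log2 ratio of at least 1 in either direction among genes with at least 10 UMIs over both libraries. The calls were tried on simulated Poisson counts of well-covered genes only. Calls from few WT UMIs, such as those of Fshr, Gata4 and Inhbb in Sertoli-like cells, were not covered. No test was made between genotypes.

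Gene positions are from GENCODE vM21 (GRCm38) and promoters from RefSeq. Members and lists were chosen with earlier results of these data known. Named genes were the 9 members, markers, per list at most 4 genes past 2-fold in each direction and 3 of highest level, and per member 3 genes of most similar pattern. Tgfbr3 and Nr5a1 fall under the highest level rule in Leydig-like cells. A gene of the lists is not reported here by name.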

Additional observations from a re-analysis of the deposited data

Results flagged for a closer look

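Inha was called in opposite directions in the 2 somatic classes. In Sertoli-like cells its log2 ratio of KO to WT was 1.42, and in Leydig-like cells it was -1.08. With 1 library per genotype the difference between the classes was not tested. The first value was 0.27 against the summed Sertoli markers, and the second was -0.91 without the WT cell that held the most UMIs.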

How the results depend on the processing

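In Sertoli-like cells, 6 genes were at least 2-fold higher in KO. The count was 2 with totals taken without germ cell genes, 1 against the Sertoli markers and 2 in cells with at least 10 markers, and 4 to 6 under the other alternatives. The shares of all genes higher were, in that order, 13.9%, 4.89%, 15.7% and 23.0% to 42.4%. Amhr2 turned to -0.10 against the markers. The median of all genes moved from 0.41 to -0.16 without germ cell genes and to -0.75 against the markers. In Leydig-like cells, 2 genes were higher. The count was 0 at resolution 0.8 and against the Leydig markers, and 1 without integration, after thinning, without germ cell genes, by the mean of per-cell CPM and with at least 50 UMIs. The share of all genes higher there ran from 4.36% against the Leydig markers to 8.39% by the mean of per-cell CPM. Without the WT cell with the most Inha UMIs 0 genes were lower. Under the other alternatives Inha was the 1 gene called lower, with log2 ratios from -1.42 to -1.01, beside 9.58% to 23.4% of all genes. In pooled germ cells 5 or 6 genes, and over whole libraries 8 or 9, were higher under each alternative run. The shares of all genes higher were 13.3% to 32.5% in pooled germ cells and 33.4% to 36.6% over whole libraries. In each grouping 8 genes had their highest level over both libraries in Sertoli-like cells.

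Of the partner genes in Sertoli-like cells, 26 were higher and 2 lower, beside 31.0% and 18.1% of all genes. Alternatives added after the data had been seen gave 15 higher without integration, 14 after thinning, 12 without germ cell genes, 6 against the markers and 11 in cells with at least 10 markers. The shares of all genes higher were, in that order, 23.0%, 31.3%, 13.9%, 4.89% and 15.7%. The count lower was 1 at resolution 0.8, without integration, without doublets, with over 1000 genes per cell, after thinning and with at least 50 UMIs, 4 without germ cell genes and 11 against the markers. The causes were not tested.

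No paired analysis was possible because each genotype had 1 library. The depth of the 46 WT Sertoli-like cells limits Fshr, Amh, Inhba, Gata4 and Inhbb, which had at most 9 UMIs there.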
